A study of Mus musculus with 8 samples.

Results

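Distal regions of open chromatin that hold a DR2, DR3 or DR5 site were examined in alveolar macrophages (AMs), the resident macrophages of the lung air spaces. A direct repeat (DR) is a pair of AGGTCA hexamers in the same orientation, and the number gives the bases between them. Peaks of all 8 ATAC-seq lists that shared a base were merged, and autosomal regions present in at least 2 libraries were kept. A member had its summit 1 to 100 kb away from its closest transcription start site (TSS) and a repeat spaced by 2, 3 or 5 bases on either strand within 100 bp of that summit. At most 2 mismatches over the 12 hexamer bases were allowed, and regions with a repeat spaced by 1 or 4 bases under the same rule were left out. Of 70896 autosomal regions, 51733 were distal and 3366 of these (6.51% of distal) were members. DR2 sites were in 1277 members, DR3 sites in 1073 and DR5 sites in 1221, and 193 members held 2 of the spacings and 6 held all 3. A further 696 distal regions met the spacing rule but also held a DR1 or DR4 site.

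ATAC-seq cuts open chromatin with the Tn5 transposase, so the number of tags at a peak summit reflects accessibility. AMs were sorted from bronchoalveolar lavage of adult mice. KO mice were CD11cCre+ Rxrabfl/fl, in which Cre is driven by the CD11c promoter and removes RXRα and RXRβ from cells that express CD11c. WT mice were CD11cCre- Rxrabfl/fl, so both genotypes carried the floxed alleles. The deletion itself was not checked here from the peak lists, and the genotypes are those of the labels. There were 4 KO libraries (replicates 1_2, 1_3, 2 and 3) and 4 WT libraries (1_2, 1_3, 3 and 4). In bulk libraries, fewer cells of a type and less accessibility per cell cannot be told apart.

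RXRs bind DNA mostly as the shared partner of other nuclear receptors, and the spacing between the hexamers helps to set which pair binds. In textbook form, RXR with the retinoic acid receptor binds DR2 and DR5, RXR with the vitamin D receptor binds DR3, RXR with PPARs binds DR1 and RXR with LXRs binds DR4. REV-ERB receptors can bind DR2 as pairs without RXR. The members are therefore defined by letters that several receptors can read, and no binding was measured.

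The lists held 60363 to 72484 peaks per library, and the genome-wide background of the caller was 1.12 to 2.26 tags, which follows depth. KO replicates 1_2 and 1_3 differed by less than sampling noise over the tested regions (chi-square over degrees of freedom 0.983), so they were also counted as 1 sample, and the counts of limma calls by spacing are given both ways. KO 2 and 3 were not told apart from noise over all regions either (1.01) but differed more at regions with over 160 tags, where the ratio was 1.14 for them and 0.975 for KO 1_2 and 1_3, so KO 2 and 3 were kept as separate samples. Whether libraries of a genotype came from separate animals is not stated for each, so p-values measure the spread between these libraries. Of 9 AM marker promoters, 8 had a peak in all 8 libraries, among them Siglecf, Marco, Car4, Pparg and Fabp4, whereas Chil3 had none. No promoter peak was found at the T and B cell genes Cd3e, Cd3d and Ms4a1, or at Ly6g, Epx, Prg2, Sftpc, Sftpa1, Cdh5 and Col1a2. S100a8, Epcam, Scgb1a1, Pecam1 and Col1a1 had a promoter peak in all 8 libraries.

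The members whose sites matched the consensus without a mismatch are shown first, since they carry the spacing in its plainest form. There were 30 of them, 14 DR2, 6 DR3 and 10 DR5, and the 12 printed are the 4 of each spacing with a peak in most libraries and then of highest peak strength. Capitals mark the hexamers and lower case marks the spacer and flanking bases, read 5′ to 3′ on the strand given in GRCm38 (mm10).
Iqgap1 DR2, chr7:80830565-80830590, plus strand: gagcgcAGGTCAgaAGGTCAaagaga
Plcl2 DR2, chr17:50499531-50499556, minus strand: cacgtgAGGTCAgaAGGTCAcagtag
Ston2 DR2, chr12:91736483-91736508, plus strand: gtctcaAGGTCAgcAGGTCAcatgtt
Gm26836 DR2, chr11:75769409-75769434, plus strand: cactagAGGTCAggAGGTCActgact
Fyn DR3, chr10:39412906-39412932, minus strand: tgtctgAGGTCAgacAGGTCAtgtgcc
Myo7a DR3, chr7:98085611-98085637, plus strand: cagggaAGGTCAccaAGGTCAgtcaag
Dyrk3 DR3, chr1:131139583-131139603, minus strand: cttAGGTCAccaAGGTCAgat
Gm30726 DR3, chr16:76539866-76539892, plus strand: tcaggaAGGTCAcaaAGGTCAagctga
Hpcal1 DR5, chr12:17712166-17712194, minus strand: agtgtgAGGTCAcagggAGGTCAcagaat
Zfand6 DR5, chr7:84670026-84670054, minus strand: tcactgAGGTCAtaattAGGTCAgaaggg
Gm47900 DR5, chr10:66852080-66852108, plus strand: ttctagAGGTCAagctcAGGTCAtcatgc
Gm17491 DR5, chr8:22492174-22492202, plus strand: gccaccAGGTCActggcAGGTCAtcccca

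Most sites were not exact. Among DR2 members, 125 had 1 mismatch at their best site and 1138 had 2. The corresponding numbers were 72 and 995 for DR3 and 122 and 1089 for DR5. At least 1 of the hexamers was exact in 50.5% of DR2, 55.6% of DR3 and 54.5% of DR5 members. The fourth base of the hexamer, T, was the one most often replaced in the first hexamer, where it was kept in 77.4% of DR2, 76.6% of DR3 and 76.8% of DR5 sites. The C at the fifth position of the second hexamer was kept in 88.4%, 87.6% and 89.3%. The middle base of the DR3 spacer was G or C in 40.4% of sites, against 66.7% and 62.0% for the outer bases.

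The sites were spread across the window instead of gathering at the summit. Their centres lay a median 44.5 bp from the summit for DR2, 47.0 bp for DR3 and 47.0 bp for DR5, and 28.4%, 27.1% and 25.6% lay within 25 bp of it.

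**Figure D1:**
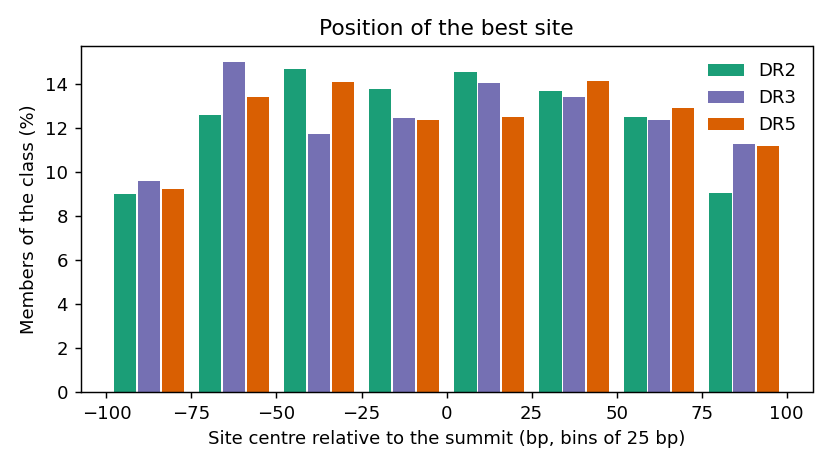
Position of the best site in each member, with the distance of the site centre from the peak summit in bins of 25 bp on the x axis and the percentage of the members of each spacing on the y axis. The 4 central bins hold similar shares, with 28.4% of DR2, 27.1% of DR3 and 25.6% of DR5 sites within 25 bp of the summit.

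Some members carried the same site letters, so they are not independent sequences. Among DR2 members, 338 shared their 14 letters with another member, against 99 for DR3 and 33 for DR5. The most frequent site was in 33 members for DR2, 12 for DR3 and 9 for DR5. The last is printed to show such a copy, with the hexamers in capitals.
DR5 in 9 members: AGGGTAtcttgAGGTCA
All 33 copies of the DR2 site, all 12 of the DR3 site and all 9 of the DR5 site were soft-masked as repeats in the reference. Of the 33 DR2 copies, 10 had a peak in all 8 libraries and were tested, and limma called 0 of them different, with 1 at an unadjusted p under 0.05. Of all tested distal regions, 8.23% were called lower and 5.43% higher in KO, so 10 copies are too few to show a difference from those shares. In total, 347 members had a site mostly within repeats and 52.7% of them had a peak in all libraries, against 63.1% of the other 3019 members.

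In other respects the members resembled distal regions at large. They had a median GC content of 49.8% around the summit, against 49.2% in all distal regions, a median width of 395 bp against 394 bp, and a median distance to the nearest TSS of 14.7 kb against 15.0 kb. Introns held 55.6% of member summits and 40.1% were intergenic, against 56.5% and 38.6% of distal regions. The PU.1 letters GAGGAAGT, for the factor that sets up macrophage enhancers, were within 100 bp of the summit in 12.6% of members and 12.2% of distal regions, counting both strands. For AP-1 (TGAGTCA or its reverse complement TGACTCA) the shares were 11.7% and 11.0%, and for RUNX (TGTGGTTA or TGTGGTTT) they were 6.62% and 6.41%.

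A peak was present in all 8 libraries at 2087 members (62.0%), against 61.2% of all distal regions. The share was 61.0% for DR2, 63.6% for DR3 and 61.6% for DR5. At the low end, 279 members had a peak in only 2 libraries. Single libraries held a peak at 2561 to 2777 members in KO and at 2719 to 3090 in WT. As a share of each library's own distal regions, these were 6.38, 6.43, 6.42 and 6.49% in KO 1_2, 1_3, 2 and 3, and 6.62, 6.49, 6.48 and 6.68% in WT 1_2, 1_3, 3 and 4. The groups met at KO 3, WT 1_3 and WT 3.

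Summit tags were recovered from the deposited fold enrichment and p-value and scaled so that all libraries had the same median over the 46378 autosomal regions with a peak in all 8 libraries. These are called normalised tags below. Over the 2087 tested members the median was 59.8, 61.7, 59.8 and 61.5 normalised tags in KO 1_2, 1_3, 2 and 3, and 63.1, 63.0, 61.6 and 63.1 in WT 1_2, 1_3, 3 and 4. The genotypes overlapped, since KO 1_3 lay above WT 3. For DR1 regions, the textbook PPAR and RXR spacing, the ranges lay apart, at 60.9 to 62.7 in KO and 67.9 to 69.8 in WT. They also lay apart at DR4, at 55.2 to 57.0 in KO and 58.5 to 59.7 in WT. At DR3 they lay apart by a narrow margin, at 59.8 to 61.533 in KO and 61.565 to 64.1 in WT. At DR2 and DR5 they overlapped.

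**Figure D2:**
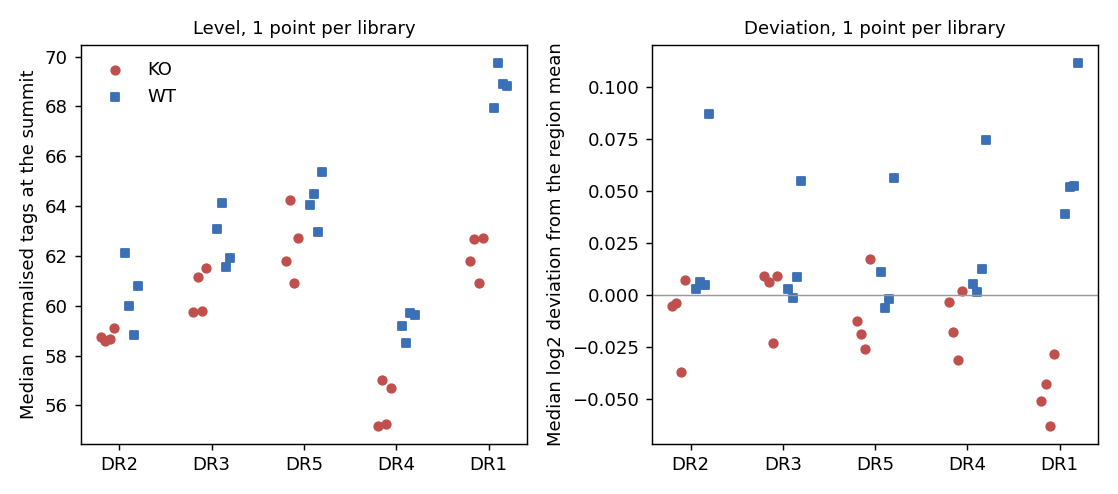
Median level per library for each spacing, with normalised summit tags on the left and the median log2 deviation of a region from its own mean over the 8 libraries on the right. Circles are KO and squares are WT libraries, 1 point each; in the right panel DR1 is the spacing at which the genotypes lie furthest apart, and the WT square that stands highest is replicate 4 at DR2, DR3 and DR5 as well as at DR1 and DR4.

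The deviation of each region from its own mean over the 8 libraries overlapped between genotypes at members, and also at DR3 and DR4. Its median over members was -0.001, -0.006, -0.029 and 0.009 in KO 1_2, 1_3, 2 and 3, and 0.007, -0.002, 0.005 and 0.061 in WT 1_2, 1_3, 3 and 4 on the log2 scale. WT 4 lay highest, and it was also the highest library over all distal regions (0.034), DR1 regions (0.112) and DR4 regions (0.074).

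KO and WT libraries were next compared region by region. limma was fitted on log2(tags + 0.5) over all 46378 regions, with Benjamini-Hochberg adjustment over all of them. Of the 2087 tested members, 221 (10.6%) were lower in KO and 106 (5.08%) were higher, and the other 1760 did not pass the test. Over all tested autosomal regions, 6.81% were lower and 6.06% were higher, and over the distal regions alone 8.23% were lower and 5.43% higher. The fold change was 1.18 to 3.19, median 1.48, for the members that fell, and 1.17 to 2.20, median 1.41, for those that rose. By 2-fold or more, 13 fell and 5 rose, and the share over all regions at that size is not given here. KO and WT values did not overlap at 185 of the 221 (83.7%) and 79 of the 106 (74.5%). The corresponding shares of the calls over all regions were 82.1% and 77.6%, so that 5.6% of all tested regions were lower and 4.7% higher without overlap. Counting KO 1_2 and 1_3 as 1 sample left 189 lower (9.06%) and 87 higher (4.17%), with 6.12% and 4.89% over all regions and 7.38% and 4.49% over distal regions. Scaling by depth instead of the median gave 125 lower (5.99%) and 28 higher (1.34%), with 4.22% and 1.17% over all regions and 5.05% and 1.34% over distal regions. Without KO replicate 3 the number of higher members was 66 (3.16%), against 3.86% of all regions in the same fit.

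With median scaling the 3 spacings gave similar shares. At DR2, 83 of 779 tested members were lower (10.7%) and 40 higher (5.14%). At DR3, 70 of 682 were lower (10.3%) and 34 higher (4.99%), and at DR5, 79 of 752 were lower (10.5%) and 40 higher (5.32%). The median log2 difference was -0.02, -0.01 and -0.02, against 0.02 over all distal regions and 0.05 over all tested regions. At DR1 regions 18.5% were lower and 2.86% higher, with a median of -0.11, and at DR4 regions 111 of 922 were lower and 35 higher. With KO 1_2 and 1_3 as 1 sample the numbers lower and higher were 76 and 32 at DR2, 58 and 31 at DR3 and 66 and 30 at DR5. The shares lower and higher were then 16.3% and 2.48% at DR1, and 10.2% and 3.36% at DR4. With depth scaling the shares lower lay further apart, at 7.45% for DR2 (58 members), 6.16% for DR3 (42) and 4.39% for DR5 (33), which for DR5 is below the 5.05% of all distal regions. Under the same scaling 6.62% of DR4 and 10.8% of DR1 regions were lower. The difference between spacings was not tested, because regions are not replicates.

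Other spacings set the scale for these shares. Among distal regions without DR1 or DR4, a repeat spaced by 0 bases was lower in KO in 8.15%, by 6 bases in 12.1%, by 7 bases in 10.2% and by 8 bases in 11.7%. The values at spacings 2, 3 and 5 lay within the range of those at 0, 6, 7 and 8. With depth scaling the latter were 4.70 to 7.64%, and the 4.39% at DR5 lay below all of them. The shares that were higher in KO were 3.62 to 5.17% at those spacings. Distal regions with no repeat spaced by 1 to 5 bases were lower in 7.36% and higher in 5.65%. These sets overlap in part, since a region may hold several spacings.

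**Figure D3:**
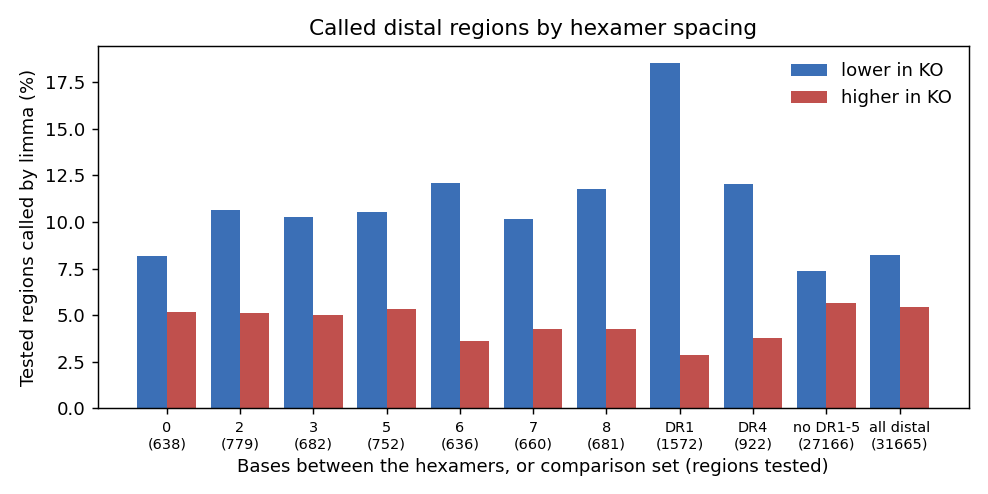
Percentage of tested distal regions called lower (blue) or higher (red) in KO by limma, for repeats of each spacing and for the comparison sets, with the number of regions tested in brackets. Spacings 2, 3 and 5 reach 10.3 to 10.7% lower, between the 8.15% at spacing 0 and the 12.1% at spacing 6, and DR1 reaches 18.5%.

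**Figure D4:**
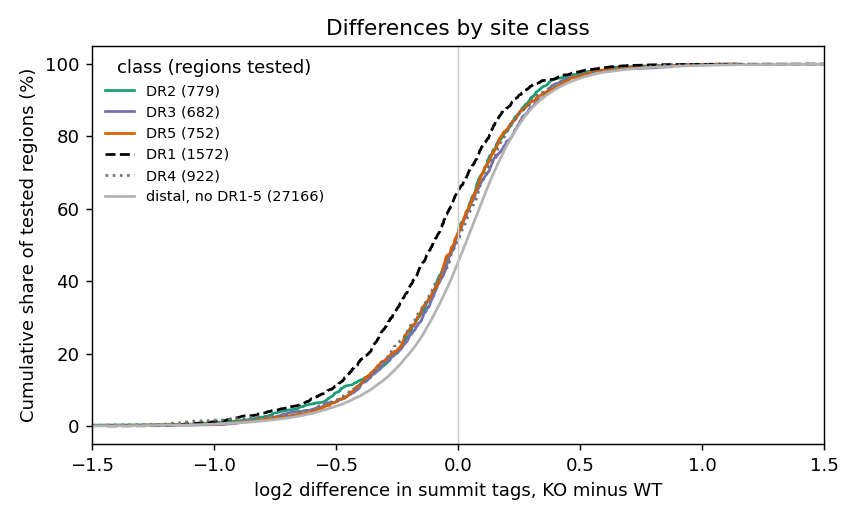
Cumulative distribution of the log2 difference in summit tags between KO and WT, by site class, with the number of regions tested in brackets. The DR2, DR3 and DR5 curves run together, with medians of -0.02, -0.01 and -0.02, and the DR1 curve lies to their left with a median of -0.11.

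The members also differed in how near they came to a DR1 site, a split chosen after the values were seen. Where the best DR1 match had 3 mismatches, just outside the rule that left DR1 regions out, 94 of 707 tested members (13.3%) were lower in KO. With 4 mismatches 9.68% of 1147 were lower, and with 5 mismatches 6.87% of 233. The same order held in distal regions without any repeat spaced by 1 to 5 bases, at 11.4, 7.10 and 5.04%. At each step the share was higher in members with median scaling. With depth scaling it was higher in members only at 4 mismatches, at 5.93% against 4.41%. At 3 mismatches 50 of 707 members and 386 of 5219 of those distal regions were then lower, and at 5 mismatches 7 of 233 and 219 of 7205. The part of a near DR1 match in the calls at members was not tested.

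Few exact sites could be tested. Of the 18 exact members with a peak in all libraries, 2 were lower in KO and the other 16 did not pass the limma test. Of all tested distal regions, 8.23% were lower and 5.43% higher, and 18 members are too few to set against those shares. The log2 differences at the 18 ran from -0.76 to 0.21. The strongest was a DR2 region 27.2 kb from Iqgap1, an actin scaffold gene, at chr7:80830346-80830937, with normalised tags of 355, 378, 353 and 391 in KO and 339.6, 305, 369 and 425 in WT. The genotypes overlapped there (log2 difference 0.05, SE 0.08, limma adjusted p = 0.76). The DR3 region in an intron of Fyn, which encodes a Src-family kinase, at chr10:39412693-39413185, had 169, 169, 160.2 and 192 in KO and 196, 222, 214 and 201 in WT. All WT values there were above all KO values, and it was called lower (log2 difference -0.27, SE 0.09, limma adjusted p = 0.035), but not with KO 1_2 and 1_3 as 1 sample (limma adjusted p = 0.07) or with depth scaling (limma adjusted p = 0.26). That call was also lost without KO 1_2, KO 1_3, KO 2, WT 1_3 or WT 3, with limma adjusted p-values of 0.077 to 0.11. The other exact member that was lower, named after its values were seen, was a DR2 region 29.6 kb from Lrig2 with 23.3, 39.1, 31.6 and 41.0 in KO and 44.6, 67.5, 52.4 and 64.2 in WT (log2 difference -0.76, SE 0.18, limma adjusted p = 0.0021). The remaining named exact sites, near Plcl2, Ston2, Gm26836, Myo7a, Dyrk3, Gm30726, Hpcal1, Zfand6 and Gm47900, had log2 differences between -0.16 and 0.07 and none passed the test. The DR5 region in Slc20a2, named for Gm17491, had a peak in all KO and in 2 WT libraries. It was weak, with 11.3 to 15.8 normalised tags in KO, 15.75 in WT 1_3 and 14.7 in WT 3.

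The sites of the members with the largest changes show how varied the letters were. Each had 1 or 2 mismatches to the consensus, and the set below gives the largest decrease and the largest increase of each spacing.
AC125381.2 DR2, chr19:33110107-33110132, minus strand: ttgggtAGGACAgaTGGTCActgtca
Gm15991 DR3, chr8:67950401-67950427, minus strand: agtgggAGGTTTatgAGGTCAtgtgtg
Gm26835 DR5, chr10:14034856-14034884, plus strand: tctctgAAGTAAgaactAGGTCAgggttt
Fbxl4 DR2, chr4:22384043-22384068, plus strand: ccccatAGGTCAccATGTCAtgcact
Sgk2 DR3, chr2:162976236-162976262, minus strand: gcagtgATGTCAtatCGGTCAacctag
Slc1a3 DR5, chr15:8642467-8642495, plus strand: cctcttATGTCCtgactAGGTCAgcattg

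The largest decrease was at a DR2 region 12.6 kb from AC125381.2, a gene without an assigned name, at chr19:33109769-33110289. Its normalised tags were 24.3, 23.6, 18 and 21.7 in KO and 77.6, 68.2, 65.2 and 72.2 in WT (log2 difference -1.67, SE 0.17, limma adjusted p = 3.1e-10). No KO value reached the lowest WT value, as the naming rule required of all the largest decreases and increases described here. The DR2 region in an intron of Nck2, which encodes an adaptor of tyrosine kinase signalling, at chr1:43467599-43467991, had 14.2, 12.3, 12.4 and 9.65 in KO and 40.8, 35.2, 35.8 and 33.3 in WT (log2 difference -1.54, SE 0.20, limma adjusted p = 1.7e-07). A second member in the same gene, a DR3 region at chr1:43520692-43521393, had 63.8, 56.5, 85.7 and 78.4 in KO and 153, 129.8, 130.5 and 131 in WT (log2 difference -0.95, SE 0.12, limma adjusted p = 1.4e-07). Both Nck2 regions were lower in every KO library than in any WT library. The other DR2 decreases were in Gsn, which encodes the actin-severing protein gelsolin (log2 difference -1.06), and near Gm47439 in an intron of Galc, a lysosomal lipid hydrolase (-1.22).

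Among DR3 members the largest decrease was in an intron of Psd3, with Gm15991 as the nearest TSS, at chr8:67950097-67950691. It had 28.4, 26.7, 31.6 and 26.5 in KO and 91.2, 93, 62.5 and 74.5 in WT (log2 difference -1.47, SE 0.16, limma adjusted p = 2.7e-09). The WT libraries were all above the KO libraries, and KO values lay close together. The other named DR3 decreases were near Gm26827 in an intron of Lrrk1 (log2 difference -1.09) and near 1700012D16Rik in an intron of St6galnac3, a sialyltransferase gene (-0.97). Among DR5 members the largest was in an intron of Hivep2, with Gm26835 as the nearest TSS, at chr10:14034675-14035203, with 30.4, 21.6, 29.3 and 30.2 in KO and 69.9, 55.5, 97.4 and 67.7 in WT (log2 difference -1.35, SE 0.17, limma adjusted p = 1.2e-07). The DR5 region in Msi2, which encodes an RNA-binding protein, had 32.4, 24.7, 21.4 and 29 in KO and 62.1, 61.5, 70.8 and 71.1 in WT (log2 difference -1.30, SE 0.17, limma adjusted p = 1.3e-07). Neither DR5 region overlapped between genotypes. Kcnh4, whose region was in a coding exon of this potassium channel gene, and Plcl1, a phospholipase C-like gene, fell by 1.11 and 1.15 on the log2 scale.

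Members that rose did so by smaller amounts. The DR2 region with the largest increase was in an intron of Fbxl4, an F-box gene, at chr4:22383906-22384241, with 27.3, 30.8, 35 and 38.6 in KO and 13.6, 20.2, 11 and 18.3 in WT (log2 difference 1.07, SE 0.21, limma adjusted p = 0.00024). The DR2 region 24.6 kb from Il20ra, a cytokine receptor subunit, had 83, 84.3, 77.8 and 88.1 in KO and 37.8, 36.8, 50.5 and 37.8 in WT (log2 difference 1.04, SE 0.14, limma adjusted p = 7.6e-07). Every KO library was above every WT library at both. The DR3 region 11.2 kb from Sgk2, a serine/threonine kinase gene, had 38.5, 32.9, 48.5 and 42.2 in KO and 17.5, 18, 14.7 and 22.9 in WT (log2 difference 1.14, SE 0.19, limma adjusted p = 3.2e-05). The DR5 region in Slc1a3, a glutamate transporter gene, had 32.4, 55.5, 46.2 and 36.2 in KO and 23.3, 19.5, 15.6 and 17.2 in WT (log2 difference 1.14, SE 0.20, limma adjusted p = 3.9e-05). Neither overlapped between genotypes. Further increases of 0.86 to 1.02 on the log2 scale were at Eif1a, Apba1, 4930478L05Rik, Saa4, Gphb5, Kcnab2 and Cd2. The region in Apba1 held both a DR2 and a DR5 site.

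**Figure D5:**
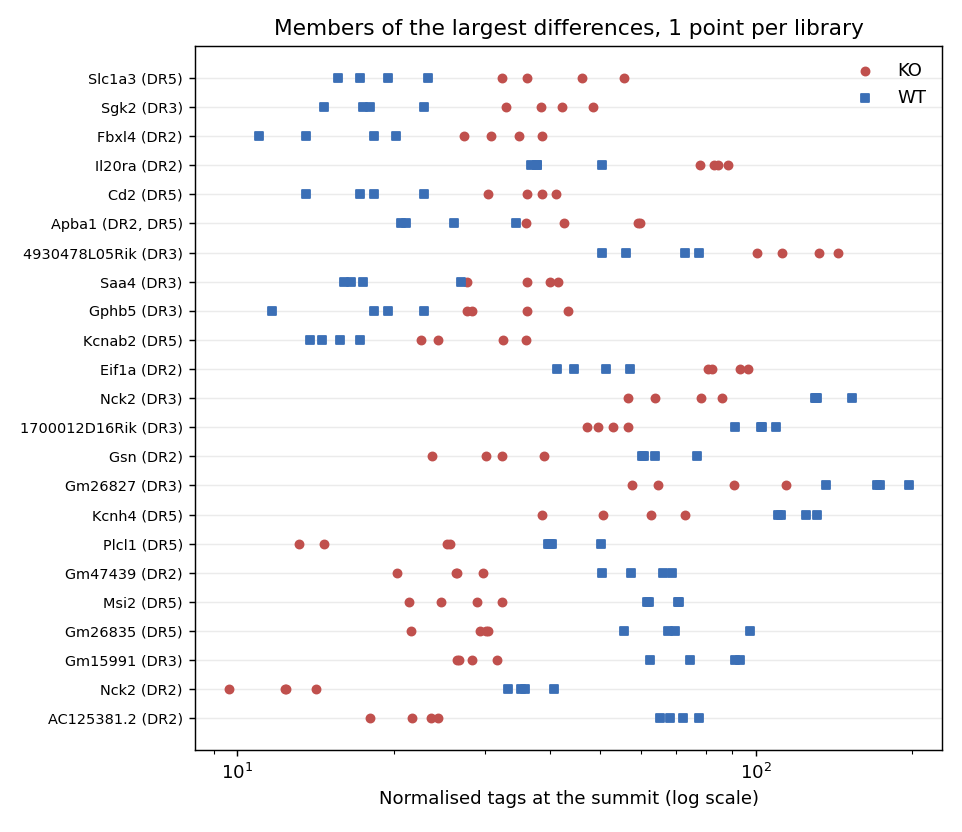
Normalised summit tags in each library (log scale) for the members with the largest differences, ordered by log2 difference and labelled by the gene of the nearest TSS and the spacing. Circles are KO and squares are WT libraries; in every row the KO and WT values do not overlap, as the rule for naming these regions required.

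Accessibility was then compared as the presence of a called peak, which also covers the 1279 members that were not tested for tags. A peak was in all 4 WT and no KO libraries at 41 members (1.22%), and in all 4 KO and no WT libraries at 5 (0.149%). Over all autosomal regions these shares were 0.831% and 0.258%, and over distal regions 0.922% and 0.276%. By spacing, 19 DR2, 11 DR3 and 12 DR5 members were WT-only and 2, 1 and 2 were KO-only. The WT-only members were mostly weak, with a median of 20.3 normalised tags and a range of 11.8 to 110.3 for their WT means. Lists of equal length gave 26 WT-only (0.772%) and 10 KO-only members (0.297%). Requiring 1 library fewer loosens the rule: there were 63 WT-only members without KO 1_3, 62 without WT 1_2 and 69 without WT 4, and 9 KO-only members without KO 2, 10 without WT 1_2 and 17 without WT 1_3. Shares over all regions under these altered rules are not given here. The counts therefore do not show whether a tilt between genotypes was particular to members. Of the members not tested, 55.4% had a peak in more WT than KO libraries and 24.7% in more KO than WT, against 51.2% and 27.9% of the distal regions not tested.

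Among the strongest WT-only members was a DR3 region 10.1 kb from Abcb4, a phospholipid transporter gene, with 29.1, 20.2, 27.6 and 24.1 normalised tags in the WT libraries. The DR3 region in an exon of Enpp1, with Gm15270 as the nearest TSS, had 112, 123, 105 and 102, more than the region near Abcb4 in every WT library. Its high tags went with a middling strength percentile of 39.7 among the peaks of the WT lists. The other named WT-only members were near Gm28723, 1700036A12Rik and Gm41148. All 5 KO-only members are named. They were the exact DR2 site in an intron of Rasef, a Rab family gene, with 29.4, 27.8, 28.2 and 36.2 normalised tags in KO, a DR3 region in Sgms1, a sphingomyelin synthase gene, with 53.7, 46.2, 31.6 and 43.4, a DR2 region 77.0 kb from Mtss1, and DR5 regions in 1700027F09Rik and Itsn1. A region without a peak may still hold tags below the caller's threshold. The Rasef site is printed because it is the only exact site among the WT-only and KO-only members.
Rasef DR2, chr4:73748457-73748482, minus strand: gtgtttAGGTCActAGGTCActgtgt

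Lists of retinoid, vitamin D, REV-ERB and clock, PPAR and LXR, and AM genes held 11, 2, 7, 4 and 14 members. The distal regions of these lists numbered 125, 47, 64, 148 and 178 in that order. Of all distal regions, 6.51% were members. For 27 retinoid genes, 5 were the nearest gene of 11 members, at Dhrs3, Rxra, Tgm2, Aldh1a2 and Rarb. Of 9 tested, 1 was lower and the other 8 did not pass, with a median log2 difference of -0.01 over the 9, against 0.03 over the distal regions of the same genes. The lower one was a DR2 region 1.94 kb from the TSS of Aldh1a2, which encodes an enzyme that makes retinoic acid, at chr9:71213638-71214009, with 79, 81.2, 75.6 and 67.6 in KO and 98, 90.8, 108 and 94 in WT (log2 difference -0.36, SE 0.12, limma adjusted p = 0.033). WT values were all above KO values. With depth scaling its limma adjusted p was 0.16, and it was 0.06 to 0.13 without KO 2, KO 3, WT 1_2 or WT 3. The 4 members near Dhrs3, which encodes an enzyme that turns retinaldehyde back to retinol, had log2 differences from -0.41 to 0.05 and none passed the test. The DR2 members near Rxra, one of the floxed genes, had differences of 0.15 and -0.003, and a DR3 member had a peak in 4 WT and 1 KO libraries. The DR2 member near Rarb, a textbook target of its own receptor, had a peak in 4 KO and 3 WT libraries.

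For 14 vitamin D genes there were 2 members. The exact DR5 site in an intron of Vdr had a peak in 3 WT and no KO libraries at 14.9 to 16.5 normalised tags. A DR2 member near Tnfsf11, which encodes RANKL, did not pass the test (log2 difference 0.22, SE 0.13, limma adjusted p = 0.29). For 21 REV-ERB, ROR and clock genes, 7 members lay near 6 genes, and 1 of 4 tested was lower. That was a DR5 region 7.64 kb from Bhlhe41, a transcriptional repressor gene expressed in AMs, with 28.4, 45.2, 31.6 and 31.4 in KO and 43.7, 45, 49.6 and 52.7 in WT (log2 difference -0.49, SE 0.17, limma adjusted p = 0.046). One KO library was within the WT range there. With depth scaling its limma adjusted p was 0.12, and it was 0.058 to 0.15 without KO 1_2, KO 2, KO 3 or any WT library. For 24 PPAR and LXR lipid genes, 4 members lay near Abca1, Cpt1a and Fabp5. The only tested one, near the fatty acid binding protein gene Fabp5, did not pass (log2 difference -0.42, SE 0.17, limma adjusted p = 0.088), but did without WT 1_2 (limma adjusted p = 0.041). Of 22 AM genes that the study names, 9 had 14 members, with 1 of 10 tested lower (Bhlhe41 again) and 1 higher.

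The higher one was a DR5 region 16.9 kb from Cd2, an adhesion molecule gene of lymphocytes, at chr3:101270817-101271258, with 30.4, 41.1, 36.1 and 38.6 in KO and 13.6, 17.2, 18.4 and 22.9 in WT (log2 difference 1.02, SE 0.20, limma adjusted p = 0.00021). The genotypes did not overlap, as the rule for naming the largest increases required. The other members near Cd2 had log2 differences of -0.51 and 0.09 and did not pass. The study lists Cd2 among the AM core genes with lower RNA in KO AMs, opposite in direction to the higher DR5 region. The promoters of the T cell markers Cd3e and Cd3d had no peak in any library, whereas some markers of other cell types did. Which cells gave the gain at the DR5 region near Cd2 was not tested. Over all distal regions of the same lists, 3.70% of tested regions were lower for retinoid genes, 3.33% for vitamin D genes, 8.89% for the REV-ERB list, 15.3% for the PPAR and LXR list and 3.03% for the AM list. The shares higher were 7.41, 3.33, 2.22, 8.11 and 6.06% in the same order. The AM list was taken from genes that the study names, so it is not independent evidence of a direction.

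The 4 sites from these lists whose values are given in full or that matched without mismatch are printed here, in the order in which they were described.
Aldh1a2 DR2, chr9:71213844-71213869, plus strand: acaagcAGGGCAaaAGGTCAgcttcc
Vdr DR5, chr15:97890707-97890735, minus strand: aaggcaAGGTCAgggctAGGTCAgggtta
Bhlhe41 DR5, chr6:145857578-145857606, plus strand: gccagcAGGGCAgtcaaAGGTCTcaagag
Cd2 DR5, chr3:101271082-101271110, minus strand: aggtcaAGGGCAacagaAGGTCGgcgtcc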

How the data were processed

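ATAC-seq was performed on 8 libraries of sorted AMs, grouped and numbered as in the sample titles. According to the study's methods, reads were trimmed with Cutadapt, aligned to mm10 with Bowtie2, cleared of duplicates, filtered with SAMtools and passed to MACS3, which shifted and extended them around the transposase cut, with no pooling of libraries stated. Each deposited peak list gives a score, which the authors' caller writes as a display value and which was not used, a fold ratio of summit tags to background, −log10 values for both p-value and q-value, and the offset of the summit. The largest q-value in the lists deposited was 0.0465.

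Whole tags at the summit were solved from the deposited fold ratio and −log10 p, and came out whole in 100% of peaks within a relative error of 1e-05. The authors tested read counts, but the deposited lists hold no counts per region, so no count test was run. Peaks sharing at least 1 bp gave 82424 merged regions, and 72711 were found in 2 or more libraries. TSSs were those of protein-coding and long noncoding genes in GENCODE M21. Differences were fitted with limma (version 3.58.1, R 4.3.3) with a mean-variance trend, on log2(tags + 0.5), with no replicate block. Of 3366 members, 2087 had a peak in all libraries and were tested. Folds on this scale understate changes of low regions. The smallest summits held 6 to 9 tags, which limits precision at weak regions. The fit was tested on simulated data with known changes. Counting KO 1_2 and 1_3 as 1 sample was added after seeing the data.

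The members and gene lists were chosen with earlier results of these data known. Regions were named by rule: the 4 strongest exact sites of each spacing, the 6 strongest WT-only and all 5 KO-only members, the 4 largest calls of each spacing and direction whose genotypes did not overlap, and each list's called members or, with none, its 2 strongest. Other definitions of the sites, scalings, filters and left-out libraries were tried as alternatives. One of the regions that the rule names and 1 marker gene are not reported here.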

Additional observations from a re-analysis of the deposited data

Results flagged for a closer look

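Values of the 4 WT libraries were screened for 1 library standing far from the rest, by the largest gap at either end divided by the range of the group. KO was not screened, because it counts as 3 samples. Of 16 summary measures per library and 38 named regions, 7 exceeded the 95% limit of Dixon's ratio for 4 samples, and chance flags about 5% of groups. The median of normalised tags over the members had a ratio of 0.955, with WT 3 at 61.6 below the other WT libraries at 63.0 to 63.1. The DR3 region of Nck2 had 0.946, with WT 1_2 the highest at 153.3 normalised tags. A group of 3 regions was set apart by WT 1_3: Plcl1 at 0.933, where it was highest, Saa4 at 0.846, where it was highest at 27.0, and Myo7a at 0.908, where it was lowest. The region near Il20ra had 0.892, with WT 3 highest at 50.5, and the region near Plcl2 had 0.83, with WT 4 highest at 80.3.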

How the results depend on the processing

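The number of members, 3366, was 415 with at most 1 mismatch, 11084 with a degenerate hexamer (A or G at position 1, G or T at position 3) and 1707 with sites within 50 bp of the summit. Under these 3 definitions 9, 97 and 23 members were WT-only, 1, 30 and 1 were KO-only, 26, 488 and 119 were lower in KO and 13, 391 and 50 were higher. The shares WT-only were 2.17, 0.875 and 1.35%, against 0.922% of distal regions. The shares KO-only were 0.241, 0.271 and 0.0586%, against 0.276%. With the degenerate hexamer both shares were close to those of distal regions. The shares lower were 10.3, 7.11 and 11.3%, against 6.81% of all tested regions and 8.23% of distal regions. With the degenerate hexamer the share lower was therefore below that of distal regions. The shares higher were 5.16, 5.7 and 4.75%, against 5.43% of distal regions. Lists of equal length gave 26 WT-only and 10 KO-only members, allowing 1 library to depart gave 165 and 34, and counting 1_2 and 1_3 as 1 sample in both genotypes gave 74 and 22. Leaving out 1 library gave 47 to 69 WT-only, 6 to 17 KO-only, 162 to 207 lower and 66 to 117 higher members. For these WT-only and KO-only counts, and those with equal or merged lists, no share over all regions is given. Depth scaling gave 125 lower and 28 higher, and a constant prior variance gave 64 higher. All 16 fits kept the main site definition. In each, the share of members lower in KO was above that of all tested autosomal regions, promoters included. The share higher was below that of all tested regions except with depth scaling, at 1.34% against 1.17%. The cause of these changes was not tested.

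With a replicate block on numbers 1_2, 1_3 and 3 (6 libraries), 212 members were lower (10.2%) and 160 higher (7.67%). Over all tested regions these shares were 6.59% and 9.41%. Same-numbered libraries correlated weakly (r = 0.055, 0.117 and 0.037), but each did so best with its own number. The sample titles do not state a pairing, so the main fit had no block. Whether the numbers mark a shared pairing or batch was not settled.

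Of 26 named regions called, 23 stayed called in every fit, and Fyn, Aldh1a2 and Bhlhe41 did not. Sign changes of the log2 difference occurred only at named regions that were not called. They were -0.00875, -0.0399 and -0.0367 at Dyrk3 (depth scaling, replicate block, without WT 4; up to 0.173 without WT 1_3), -0.016, -0.033 and -0.029 at Iqgap1 (depth, quantile, without WT 1_3; up to 0.131 without WT 4), -0.014, -0.024, -0.010 and -0.051 at Zfand6 (depth, without KO 1_3, KO 3 and WT 3; up to 0.224 without KO 1_2), 0.017, 0.004 and 0.046 at Gm47900 (replicate block, without KO 3 and WT 3; down to -0.124 without WT 1_2), -0.017 and -0.0045 at Gm26836 (1_2 and 1_3 as 1 sample, without WT 1_3; up to 0.200 without WT 4), -0.033, -0.00472, -0.00128 and -0.024 at Ston2 (depth, 1_2 and 1_3 as 1 sample, without KO 1_2 and WT 1_3; up to 0.0875 without WT 4), 0.00294 and 0.0275 at Gm30726 (1_2 and 1_3 as 1 sample, without WT 1_3; down to -0.33 without WT 4) and 0.00802 at Plcl2 (replicate block).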
